A study of Mus musculus with 36 samples.

Results

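Gene expression in the blood of Townes sickle cell mice of the 3 mg/kg MIR29B arm was followed by setting the 3 libraries of week 4 against the 3 libraries of week 0. These 6 libraries were chosen by their titles alone and are 6 of the 36 of the series. Townes mice are a humanised model of sickle cell disease that carries human globin genes, the sickle beta-globin among them, in place of the mouse ones. MIR29B is, by the series title, a cholesterol-modified microRNA, and the labels give the genotype of its arm as MIR29B overexpression. The groups used here were 3 mg/kg MIR29B at weeks 0, 2 and 4, 2 mg/kg MIR29B at weeks 0 and 4, and 3 mg/kg scrambled control at weeks 0, 2 and 4, with 3 libraries each. All groups shared the Townes background, the mini-osmotic pump as the route, and removal of globin mRNA from TRIzol-extracted RNA. The labels do not say whether week 0 blood preceded the first dose, whether the same mice were bled at each week, or the age of the mice. Whether each library of a group is a different animal is not stated either. Each group held libraries of both sexes by their sex-linked transcripts, so no group came from a single animal. The p-values measure only the spread between libraries, which may still be technical in part. This spread was estimated over all 36 libraries in 12 groups. The 2 mg/kg MIR29B group of week 2 and the 2 mg/kg scrambled groups of weeks 0, 2 and 4 therefore entered it too.

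MicroRNAs pair through bases 2 to 8, the seed, with complementary sites in the 3' untranslated region (3' UTR) of transcripts, and lower the level or the translation of those transcripts. The miR-29 family is known to act on transcripts of DNA methyltransferases, among them Dnmt3a and Dnmt3b, and on collagens and Mcl1. DNMT3A sets new methyl marks on DNA, and loss of methylation at the gamma-globin promoters is a known route to fetal hemoglobin, the aim named in the series title. Blood that is taken for red cells also carries white cells and platelets, and neutrophils and monocytes switch on a set of early transcripts when they meet bacterial products or cytokines.

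The mature sequence that the tested molecule is named for is shown first, since its seed fixes which transcripts could pair with it. It is mmu-miR-29b-3p of RefSeq on GRCm38.p6, encoded by Mir29b-2 at chr1:195037091-195037113 on the plus strand and by Mir29b-1 at chr6:31063025-31063047 on the minus strand. The capitals mark the seed.
mmu-miR-29b-3p: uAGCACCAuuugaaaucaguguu
The next sequences are 3' UTR stretches of 30 bases on GRCm38, read 5' to 3' along each transcript, from the called genes that hold a match and from Dnmt3a and Mcl1, known targets. The capitals mark the match to the seed, TGGTGCT, or the 8-base match TGGTGCTA. Dnmt3a holds 3 further seed matches that are not shown. The Ptp4a1 site lies at chr1:30941312-30941341 on the minus strand. The Trem1 site lies at chr17:48246017-48246046 on the plus strand, and the Ets2 site at chr16:95720344-95720373 on the plus strand. The Dnmt3a sites lie at chr12:3911390-3911419 and chr12:3911459-3911488, and the Mcl1 site at chr3:95661844-95661873, all on the plus strand.
Ptp4a1: attaggttgtatataTGGTGCTAgaagtca
Trem1: gaatccactttgggtTGGTGCTctgggaca
Ets2: accttaaacgaagtgTGGTGCTtcctgtct
Dnmt3a, first site: cccaggggaggtagcTGGTGCTAgcaccag
Dnmt3a, second site: agcggggtcccaagcTGGTGCTAattcctc
Mcl1: ctagagtcttaaccaTGGTGCTAttcactg
A match is a description of these letters and does not show that the transcript is bound.

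The 6 libraries held 28.43 to 41.31 M counts at week 4 and 28.77 to 31.48 M at week 0, summed over transcripts. Over all 36 libraries the totals were 10.7 to 45.65 M. The cell type in the labels is erythrocytes, and transcripts of red cells were present at high levels. Alas2, which starts the making of heme in erythroid cells, accounted for 10.21% to 11.57% of gene counts at week 4 and for 6.73% to 11.41% at week 0. Markers of neutrophils, monocytes, B cells, T cells, NK cells and platelets were counted in all 6 libraries, so the RNA was not of red cells alone. Counts of 4 Y-linked genes exceeded those of Xist, which is transcribed from the inactive X chromosome of females, in 1 of 3 libraries at week 4 and in 2 of 3 libraries at week 0. Replicate 2 had the female pattern at week 4 and the male pattern at week 0. By this pattern the libraries of the 2 weeks cannot all be matched mouse by mouse.

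Of 11953 genes tested, 17 passed an adjusted p under 0.05 (0.142%, edgeR quasi-likelihood test with Benjamini-Hochberg adjustment), and all 17 were higher at week 4. Of the 17, 10 belong to the lists of inflammatory, immediate early, neutrophil, monocyte or glucocorticoid-responsive genes. Ptp4a1 belongs to the list of miR-29 targets and 6 belong to no list. In the order named, the former lists held 54, 48, 36, 35 and 20 of the 11953 genes tested, with overlap. The lists were chosen with earlier results of these data known, so this count is descriptive only. Their log2 fold changes ran from 1.58 to 6.34. No gene was called lower in this fit, although 320 genes (2.68%) had a lower level at an unadjusted p under 0.05, against 412 (3.45%) with a higher one. DESeq2 called 10 genes lower, limma voom called 1, and edgeR without a filter on low counts called 3. The median log2 fold change over all genes tested was -0.04. For each of the 17 genes, every week 4 library lay above every week 0 library, which was so for 7.3% of all genes tested, and the reverse was so for 8.43%. Levels below are CPM, counts scaled to a common library size with TMM factors. They are not divided by transcript length and are compared within a gene only.

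**Figure D1:**
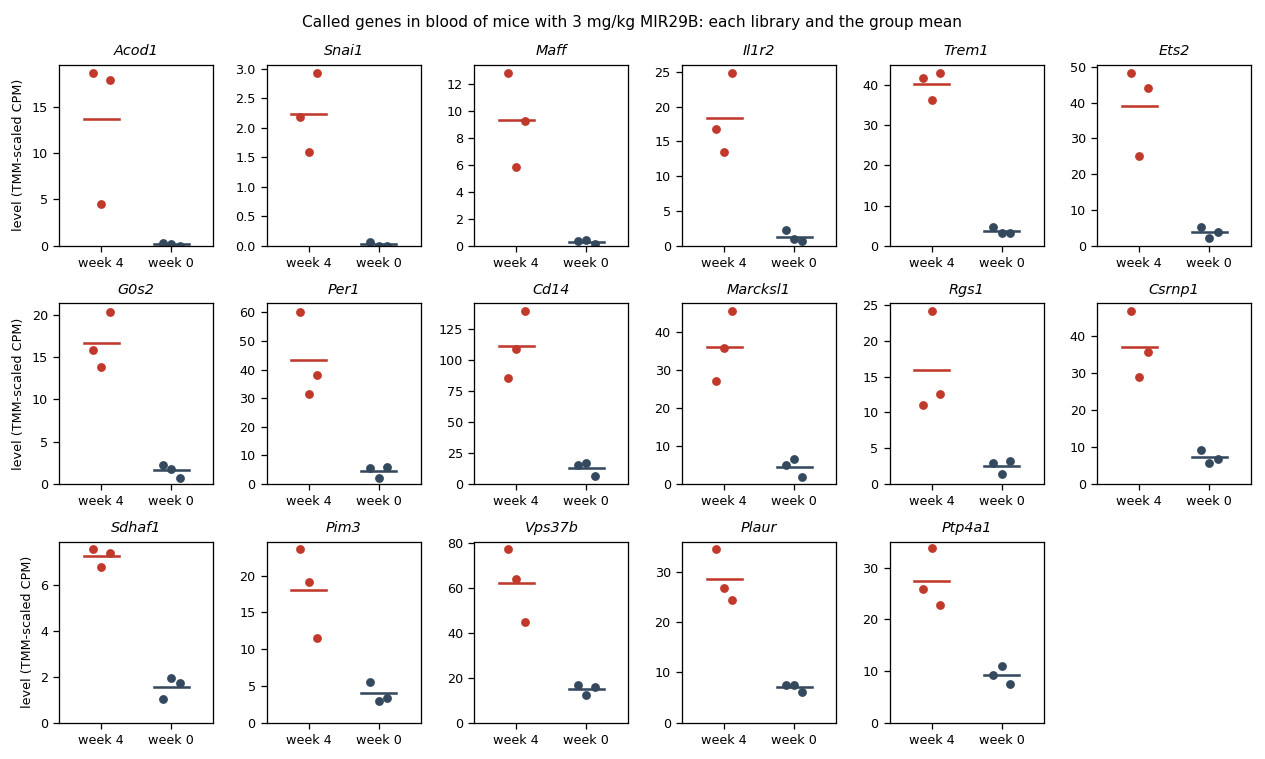
Level of each called gene in the 3 libraries of week 4 (left) and the 3 libraries of week 0 (right) of the 3 mg/kg MIR29B arm, as TMM-scaled CPM on linear axes that start at 0. Points are libraries and the line is the group mean; all week 4 points lie above all week 0 points for each of the 17 genes.

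Several of the 17 genes are sensors and receptors of the innate response. Cd14 is the monocyte and neutrophil co-receptor that hands bacterial lipopolysaccharide to Toll-like receptor 4. It stood at 85.4, 109 and 139 CPM at week 4, against 15.3, 16.9 and 6.87 CPM at week 0. The log2 fold change was 3.09 ± 0.59 (SE, 3 libraries each, adjusted p = 0.00986, edgeR). Trem1 is a receptor on neutrophils and monocytes that amplifies inflammatory signals, encoded at chr17:48232713-48246927. Its levels were 41.8, 36.2 and 43.1 CPM at week 4, against 4.55, 3.16 and 3.25 CPM at week 0. The libraries of each week lay close together, and the log2 fold change was 3.46 ± 0.57 (adjusted p = 0.00325, edgeR). Il1r2, a decoy receptor that binds interleukin-1 without signalling, had 16.8, 13.5 and 24.8 CPM at week 4, against 2.24, 0.959 and 0.668 CPM at week 0. This was a log2 fold change of 3.81 ± 0.76 (adjusted p = 0.0163, edgeR). Plaur, the urokinase receptor of migrating leukocytes, had 34.7, 26.9 and 24.5 CPM at week 4, against 7.41, 7.57 and 6.02 CPM at week 0. Its log2 fold change was 2.03 ± 0.44 (adjusted p = 0.0377, edgeR), and leaving out any 1 of the 6 libraries ended this call.

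Acod1 makes itaconate from an intermediate of the citric acid cycle in activated macrophages and neutrophils. It had 18.6, 4.51 and 17.9 CPM at week 4, against 0.272, 0.192 and 0 CPM at week 0. Only 12 counts were seen at week 0 in all, against 1012 at week 4, and the ratio of these sums, scaled by library size, was 90.0, with an exact 95% interval for counting error of 51.3 to 175. Week 4 replicate 2 was the lowest of its group and was still above every week 0 library. The fitted log2 fold change was 6.34 ± 1.35 (adjusted p = 0.0357, edgeR), and the call ended without any 1 of 5 of the 6 libraries, all but week 4 replicate 2. G0s2, an inhibitor of the lipase that breaks down stored fat and a transcript abundant in neutrophils, had 15.8, 13.9 and 20.4 CPM at week 4, against 2.24, 1.82 and 0.764 CPM at week 0. Its log2 fold change was 3.36 ± 0.63 (adjusted p = 0.00746, edgeR). Marcksl1, a membrane-bound regulator of actin, had 27.1, 35.8 and 45.3 CPM at week 4, against 4.96, 6.62 and 1.91 CPM at week 0, a log2 fold change of 3.0 ± 0.52 (adjusted p = 0.00391, edgeR).

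Among transcription factors, Maff had the smallest adjusted p of the comparison. It is a small MAF factor, which lacks a domain for activation and pairs with NRF2 or BACH proteins, and is encoded at chr15:79346621-79359078. It stood at 12.8, 5.84 and 9.27 CPM at week 4, against 0.34, 0.383 and 0.0955 CPM at week 0. The log2 fold change was 5.04 ± 0.7 (adjusted p = 0.000325, edgeR). The 3 week 0 libraries held 20 counts together and the week 4 libraries 666, a ratio of 35.5 with an exact 95% counting interval of 22.8 to 58.6. Of the 17 calls only that of Maff held under all 15 other settings, with log2 fold changes of 4.66 to 5.31 and adjusted p of 7.77e-13 to 0.0185. Per1 is a repressor of the circadian clock and a direct target of the glucocorticoid receptor. It had 60.3, 31.6 and 38.1 CPM at week 4, against 5.78, 2.11 and 6.02 CPM at week 0, a log2 fold change of 3.22 ± 0.55 (adjusted p = 0.00341, edgeR).

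Ets2, an ETS family factor downstream of MAP kinases, had 48.3, 25.1 and 44.1 CPM at week 4, against 5.23, 2.11 and 3.91 CPM at week 0. Its log2 fold change was 3.38 ± 0.61 (adjusted p = 0.00555, edgeR). Csrnp1, a nuclear protein first known as an AXIN1-induced gene in human cells, had 46.8, 28.8 and 35.8 CPM at week 4, against 9.18, 5.66 and 6.87 CPM at week 0. The log2 fold change was 2.36 ± 0.44 (adjusted p = 0.00661, edgeR). Snai1, a zinc finger repressor best known from epithelial cells that turn mesenchymal, was low throughout, at 2.18, 1.59 and 2.92 CPM at week 4 and at 0.068, 0 and 0 CPM at week 0. It had 154 counts at week 4 and 2 at week 0, a ratio of 82.2 with an exact 95% counting interval of 22.4 to 685. Every count of the table is even, and with counts halved that interval was 14.3 to 3290. The adjusted p was 0.00474 (edgeR), and the size of the fold rests on those 2 counts.

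The other 5 called genes act in signalling, trafficking and mitochondria. Rgs1 speeds the shut-off of G protein signals from chemokine receptors in lymphocytes and other leukocytes. It had 11, 24.1 and 12.6 CPM at week 4, against 2.92, 1.44 and 3.25 CPM at week 0, a log2 fold change of 2.64 ± 0.44 (adjusted p = 0.00325, edgeR). Pim3 is a serine/threonine kinase that favours survival, and it had 23.6, 19.1 and 11.5 CPM at week 4, against 5.57, 2.97 and 3.34 CPM at week 0. Its log2 fold change was 2.18 ± 0.44 (adjusted p = 0.0163, edgeR). Vps37b, a subunit of the ESCRT-I sorting complex, had 77.2, 63.8 and 44.8 CPM at week 4, against 16.9, 12.1 and 15.8 CPM at week 0, a log2 fold change of 2.05 ± 0.41 (adjusted p = 0.0167, edgeR). Sdhaf1 is an assembly factor of mitochondrial complex II. It had 7.54, 6.76 and 7.39 CPM at week 4, against 1.02, 1.92 and 1.72 CPM at week 0, and the 3 week 4 libraries differed little among themselves (log2 fold change 2.22 ± 0.4, adjusted p = 0.00555, edgeR). Ptp4a1, a prenylated phosphatase and a literature target of miR-29, had 25.9, 33.7 and 22.8 CPM at week 4, against 9.11, 10.9 and 7.54 CPM at week 0. Its log2 fold change was 1.58 ± 0.35 (adjusted p = 0.0473, edgeR), and leaving out any 1 of the 6 libraries ended the call. Pim3, Plaur, Rgs1, Sdhaf1 and Vps37b lie outside the rule for named genes and were chosen after their values were seen.

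The number of calls depended on single week 0 libraries. Without week 0 replicate 2 only 2 calls were left, Maff and Marcksl1, and without week 0 replicate 3 only 3 were left, Maff, Per1 and Rgs1. Without week 0 replicate 1 there were 13 calls, of which 11 were among the 17, and those of Acod1, Cd14, Plaur, Ptp4a1, Sdhaf1 and Vps37b ended. Without week 4 replicate 1 there were 11 calls, and those of Acod1, Csrnp1, Pim3, Plaur, Ptp4a1 and Vps37b ended. Without week 4 replicate 2 there were 20, and those of Plaur and Ptp4a1 ended. Without week 4 replicate 3 there were 13, and those of Acod1, Il1r2, Plaur and Ptp4a1 ended. Over all 15 settings the log2 fold change of Trem1 stayed within 3.36 to 3.65 and that of Sdhaf1 within 1.99 to 2.4. With sex as a term of the fit, a choice made after seeing the data, 19 genes were called and 16 of the 17 were among them, all but Ptp4a1.

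**Figure D2:**
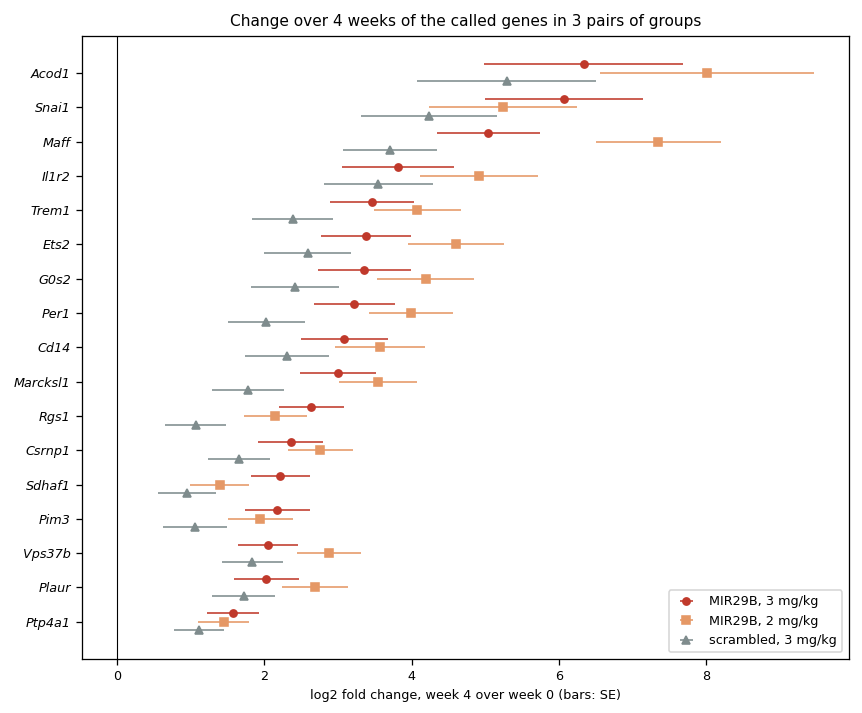
Log2 fold change with its standard error for each called gene, week 4 over week 0, in the 3 mg/kg MIR29B, 2 mg/kg MIR29B and 3 mg/kg scrambled arms. All values are above 0; those of the 3 mg/kg MIR29B arm run from 1.58 to 6.34 and those of the scrambled arm from 0.95 to 5.29.

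Week 2 gave a further reading of the same genes from libraries outside the 2 groups compared, although the week 0 libraries are shared. The week 2 libraries did enter the filter, the scaling and the estimate of the spread. For all 17 genes, every week 2 library of the 3 mg/kg MIR29B arm lay above every week 0 library, which was so for 9.59% of all genes tested. The 17 were chosen in part by their low values in these week 0 libraries. Maff had 9.09, 5.54 and 3.01 CPM at week 2, and Trem1 had 48.4, 34.4 and 29.4 CPM. Cd14 had 137, 124 and 104 CPM, and Acod1 was the most uneven of those named, with 25, 7.16 and 1.59 CPM. Csrnp1 had 69.8, 35.0 and 39.1 CPM.

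**Figure D3:**
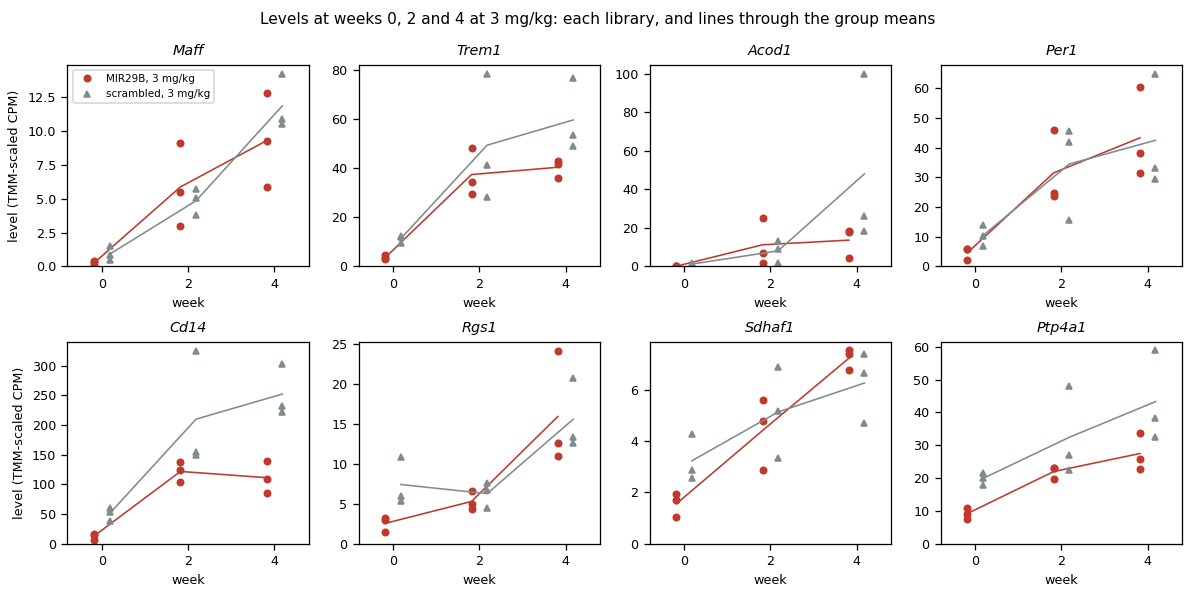
Level of Maff, Trem1, Acod1, Per1, Cd14, Rgs1, Sdhaf1 and Ptp4a1 at weeks 0, 2 and 4, as TMM-scaled CPM, in the 3 mg/kg MIR29B arm and the 3 mg/kg scrambled arm; points are libraries and lines join group means. In the MIR29B arm every week 2 and week 4 library of these genes lies above the week 0 libraries.

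The scrambled control arm was examined for the same weeks. At 3 mg/kg scrambled, 5 genes were called between week 4 and week 0 (0.0418%), of which Maff, Plk3 and Coq10b were higher (0.0251%) and Fos and AI467606 were lower (0.0167%). At an unadjusted p under 0.05, 310 genes (2.59%) were higher and 323 (2.7%) were lower. Maff was the 1 gene shared with the 17, which is 5.88% of the 17 and 20% of the 5. Leaving out 1 library of the scrambled arm left 0 to 2 of its 5 calls. All 17 genes nevertheless had a positive fold change in the scrambled arm, from 0.95 for Sdhaf1 to 5.29 for Acod1 on the log2 scale. The difference in the change between the arms was tested directly, and no gene passed (edgeR, smallest adjusted p of 1.0), with 158 genes at an unadjusted p under 0.05, 86 of them higher (0.719%) and 72 lower (0.602%). DESeq2 and limma voom also called none. The 17 were chosen for their change in the MIR29B arm, so the direction of their difference between the arms is not read here. The smallest unadjusted p for a difference was that of Rgs1, with a log2 difference of 1.57 ± 0.59 (unadjusted p = 0.0111, adjusted p = 1.0, edgeR), and the next that of Sdhaf1, 1.28 ± 0.55 (unadjusted p = 0.0264, edgeR). For Maff the difference was 1.33 ± 0.88 (unadjusted p = 0.14, edgeR), and for Acod1 it was 1.05 ± 1.61, so that neither a larger nor a smaller change than with scrambled control can be told at this spread.

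The levels show where the arms stood apart. At week 0 the mean of each of the 17 genes was lower in the 3 mg/kg MIR29B arm than in the 3 mg/kg scrambled arm, and for 14 of them all 3 MIR29B libraries were below all 3 scrambled ones, which was so for 6.7% of all genes tested. The 17 genes were chosen in part by their low week 0 values in the MIR29B arm, and the difference at week 0 was not tested. At week 4 the mean was lower with MIR29B for 13 of the 17 and higher for 4, Per1, Pim3, Rgs1 and Sdhaf1. Cd14 averaged 111 ± 26.8 CPM with MIR29B at week 4 and 252 ± 44.2 CPM with scrambled control at week 4 (SD, n = 3 each), and at week 0 it averaged 13 ± 5.38 CPM with MIR29B and 50.9 ± 10.8 CPM with scrambled control. Rgs1 averaged 15.9 ± 7.17 CPM with MIR29B and 15.5 ± 4.47 CPM with scrambled control at week 4, and 2.54 ± 0.964 CPM with MIR29B and 7.38 ± 3.02 CPM with scrambled control at week 0. For Maff the means at week 4 were 9.29 ± 3.46 CPM with MIR29B and 11.9 ± 2.01 CPM with scrambled control, and at week 0 they were 0.273 ± 0.155 CPM with MIR29B and 0.911 ± 0.525 CPM with scrambled control.

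At the lower dose of 2 mg/kg MIR29B the same weeks gave 249 called genes (2.08%), 188 higher (1.57%) and 61 lower (0.51%). Without adjustment, at a p under 0.05, 1233 (10.3%) were higher and 980 (8.2%) lower. The 249 held 16 of the 17 genes, all but Sdhaf1, which is 94.1% of the 17 and 6.43% of the 249. The difference in the change between the doses was tested, and no gene passed (edgeR, smallest adjusted p of 0.809), with 622 genes at an unadjusted p under 0.05, 343 of them higher (2.87%) and 279 lower (2.33%). DESeq2 and limma voom also called none. Among the 17, Maff had the smallest unadjusted p for a difference between the doses, with a log2 difference of -2.31 ± 1.11 (unadjusted p = 0.0447, adjusted p = 0.809, edgeR). It averaged 9.29 ± 3.46 CPM at 3 mg/kg and 16.3 ± 8.96 CPM at 2 mg/kg at week 4, and 0.273 ± 0.155 CPM at 3 mg/kg and 0.0708 ± 0.123 CPM at 2 mg/kg at week 0 (SD, n = 3 each). The count of 249 ranged from 43 to 615 when 1 library of that dose was left out, and the counts of the 2 doses are not ranked here.

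The genes with the smallest p for a difference between arms or doses were mostly of low counts and none was called. Slc2a9, a urate and glucose transporter, averaged 1.26 ± 0.436 CPM at week 4 and 0.504 ± 0.284 CPM at week 0 with 3 mg/kg MIR29B, and 0.119 ± 0.103 CPM at week 4 and 1.04 ± 0.385 CPM at week 0 with scrambled control. The log2 difference between the arms was 4.27 ± 1.1 (unadjusted p = 0.000452, adjusted p = 1.0, edgeR). The others by this rule were Ccdc92b, Fbxl4, Extl2 and Cars between arms, with log2 differences of -5.6 to 4.09. Between doses, Cd80, a costimulatory ligand for T cells, had a log2 difference of -7.12 ± 1.75 (unadjusted p = 0.000287, adjusted p = 0.809, edgeR), which rests on 0 counts at week 0 of the 2 mg/kg dose and is no measure of size. Cdc42ep4, Alg9, Chst13 and Slc22a15 followed, with unadjusted p of 0.000611 to 0.00101.

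The inflammatory response genes had the highest median of the 28 lists. The lists were chosen with earlier results of these data known, so ranks and counts of lists, here and below, are descriptive only. Of 54 tested members, 5 were called higher (Acod1, Cd14, Marcksl1, Plaur and Trem1) and none lower, beside 0.142% of all genes. At an unadjusted p under 0.05, 31 members had a higher level and none a lower one, beside 3.45% and 2.68% of all genes, and the list's median log2 fold change was 1.46, against -0.04 over all genes. Without week 0 replicate 1, 2 or 3 there were 2, 1 and 0 called members, and 3 without week 4 replicate 1 or 3. Members just short of the threshold included Ccrl2, a chemokine-binding receptor that does not signal, with 21.4, 9.55 and 31.2 CPM at week 4 and 4.28, 6.71 and 3.34 CPM at week 0 (adjusted p = 0.0529, edgeR). Tlr2, the receptor for bacterial lipoproteins, had 25.4, 20.2 and 29.5 CPM at week 4 and 6.05, 4.03 and 1.53 CPM at week 0 (adjusted p = 0.0559, edgeR). The neutrophil chemokine Cxcl2 had 43.5, 47.4 and 55.6 CPM at week 4 and 10.1, 2.88 and 3.06 CPM at week 0 (adjusted p = 0.0776, edgeR). The cytokine Il1b had 129, 161 and 147 CPM at week 4 and 51.3, 40.2 and 17.3 CPM at week 0 (adjusted p = 0.284, edgeR), and Tnf had 1.34, 2.92 and 3.26 CPM at week 4 and 1.43, 0.288 and 0.0955 CPM at week 0 (adjusted p = 0.619, edgeR).

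Regulators of NF-kappa-B, the transcription factor that drives many of these genes, were in the same list. Nfkbia, which holds NF-kappa-B in the cytoplasm, had 80.1, 67.5 and 96.1 CPM at week 4 and 30.6, 19.0 and 15.8 CPM at week 0, with no overlap (log2 fold change 1.9 ± 0.5, adjusted p = 0.162, edgeR). Nfkbiz, a nuclear partner of NF-kappa-B, had 58.9, 41.4 and 98.0 CPM at week 4 and 16.2, 6.04 and 9.74 CPM at week 0 (log2 fold change 2.63 ± 0.66, adjusted p = 0.103, edgeR). Neither passed the threshold. In the scrambled arm the median of the inflammatory list was 1.08, and at 2 mg/kg MIR29B it was 2.35. The summed level of the list was 1167 to 1380 CPM at week 4 and 490.0 to 512 CPM at week 0, and without the 5 called members it was 954 to 1111 CPM at week 4 and 465 to 480.0 CPM at week 0.

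**Figure D4:**
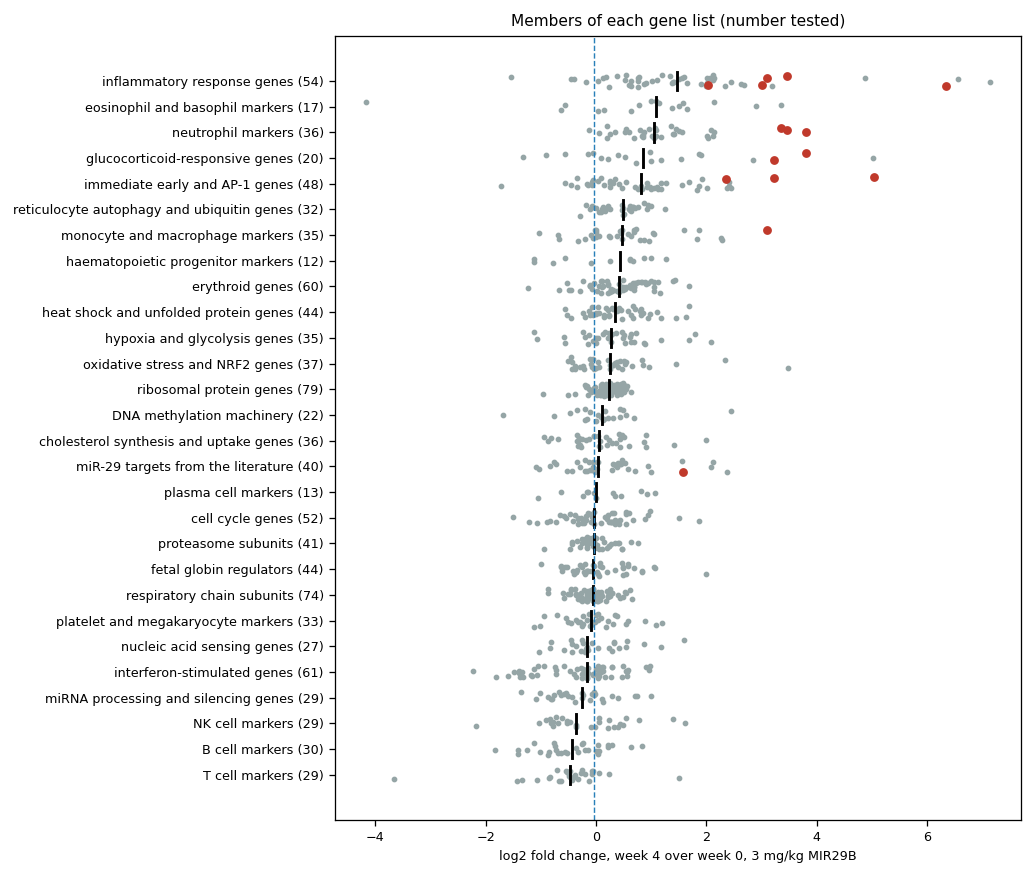
Log2 fold change, week 4 over week 0 at 3 mg/kg MIR29B, of the tested members of each of 28 gene lists, the sex-linked genes left out, with the number tested in brackets. Grey points are members that were not called, red points are called members, black bars are list medians and the dashed line is the median over all genes, -0.04; the inflammatory response list has the highest median, 1.46, and the T cell marker list the lowest, -0.47.

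Immediate early and AP-1 genes, which cells switch on without new protein synthesis, had 48 tested members, of which 3 were called higher (Maff, Csrnp1 and Per1), beside 0.142% of all genes. At an unadjusted p under 0.05, 21 were higher and 1 was lower, beside 3.45% and 2.68% of all genes, and the median log2 fold change was 0.82. Without week 0 replicate 2 only Maff was called. Fosl2, a FOS-related partner of JUN proteins, had 37.6, 32.5 and 33.5 CPM at week 4 and 9.38, 4.79 and 5.35 CPM at week 0 (adjusted p = 0.0529, edgeR). Trib1, a pseudokinase that steers C/EBP proteins to degradation, had 18.7, 8.89 and 14.9 CPM at week 4 and 3.67, 1.15 and 3.15 CPM at week 0 (adjusted p = 0.0515, edgeR). Fos, the partner of JUN in AP-1, was the 1 member lower at an unadjusted p under 0.05, among 10 with a negative fold change, and had the smallest p of all genes that were lower at week 4. It had 23.5, 13.4 and 13.7 CPM at week 4 and 88.7, 44.4 and 34.2 CPM at week 0, with no overlap (log2 fold change -1.72 ± 0.43, adjusted p = 0.098, edgeR). In the scrambled arm Fos was called lower, with a log2 fold change of -2.36 ± 0.44 (adjusted p = 0.0163, edgeR). DESeq2 called 12 members and limma voom 7. Junb had 334, 212 and 253 CPM at week 4 and 177, 83.7 and 92.6 CPM at week 0 (adjusted p = 0.231, edgeR).

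The glucocorticoid-responsive genes overlap these lists and had 2 of 20 tested members called, Per1 and Il1r2, both higher, beside 0.142% of all genes. At an unadjusted p under 0.05, 8 were higher and none lower, beside 3.45% and 2.68% of all genes. The median log2 fold change was 0.85, with 15 members positive and 5 negative. The list includes Nfkbia, given above. Klf9, a repressor induced by cortisol, had a log2 fold change of 2.84 ± 1.08 (adjusted p = 0.582, edgeR), and Ddit4, an inhibitor of mTOR complex 1, one of 1.17 ± 0.36 (adjusted p = 0.333, edgeR). Their summed level was 546 to 691 CPM at week 4 and 373 to 458 CPM at week 0.

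Promoter sequence was read for the called genes, since these genes moved together, with 300 bases each from 250 before to 50 after the start of transcription (RefSeq on GRCm38.p6). Of the 17 genes 14 had an entry. The cyclic AMP response element TGACGTCA, searched on both strands, was found in Maff alone among the 14, and in 2.03% of all 27025 genes with an entry. Its 5-base part TGACG, which lies within it, was found in 6 of the 14 and in 23.05% of all genes. The AP-1 site TGANTCA was found in Csrnp1 and Plaur, 2 of the 14, and in 8.97% of all genes. The E-box CACGTG, which the circadian factors CLOCK and BMAL1 can bind, was found in Il1r2, Maff and Per1, 3 of the 14, and in 8.09% of all genes. An NF-kappa-B motif was found in 1 of the 14, Maff, and in 5.14% of all genes. The promoter of Maff with the response element is shown since Maff had the smallest p, at chr15:79347270-79347569 on the plus strand, and that of Csrnp1 with its pair of AP-1 sites at chr9:119982974-119983273 on the minus strand. The capitals mark the E-box and the response element in Maff and the AP-1 sites in Csrnp1.
Maff promoter: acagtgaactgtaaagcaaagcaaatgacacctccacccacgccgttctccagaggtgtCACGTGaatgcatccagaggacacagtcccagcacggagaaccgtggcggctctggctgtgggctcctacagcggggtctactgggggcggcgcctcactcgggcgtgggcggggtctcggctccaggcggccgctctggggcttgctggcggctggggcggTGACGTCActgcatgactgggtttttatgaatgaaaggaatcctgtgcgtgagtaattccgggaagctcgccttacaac
Csrnp1 promoter: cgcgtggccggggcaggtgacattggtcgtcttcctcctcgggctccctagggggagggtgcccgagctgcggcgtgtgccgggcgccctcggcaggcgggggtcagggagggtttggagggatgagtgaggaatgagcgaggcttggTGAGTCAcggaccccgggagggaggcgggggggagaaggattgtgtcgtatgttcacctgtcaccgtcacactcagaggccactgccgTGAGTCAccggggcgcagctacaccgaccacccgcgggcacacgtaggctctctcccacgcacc

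Of 36 tested neutrophil markers 3 were called higher (Il1r2, G0s2 and Trem1), beside 0.142% of all genes. Without adjustment, 12 were higher and none lower at a p under 0.05, beside 3.45% and 2.68% of all genes, and the median log2 fold change was 1.05. None of these 3 calls held without week 0 replicate 2 or without week 0 replicate 3. S100a9, a subunit of calprotectin, had 184, 352 and 316 CPM at week 4 and 103, 140.0 and 70.6 CPM at week 0 (adjusted p = 0.559, edgeR). Csf3r, the receptor for G-CSF, had 95.2, 87.4 and 106 CPM at week 4 and 54.7, 45.1 and 27.4 CPM at week 0 (adjusted p = 0.777, edgeR). The summed level of the neutrophil list was 939, 1351 and 1194 CPM at week 4 and 572, 606 and 386 CPM at week 0. Without the 3 called members it was 865, 1287 and 1105 CPM at week 4 and 563, 600.0 and 382 CPM at week 0, still with no overlap. Of the 38 listed, Elane, a granule protease of immature neutrophils, was at 0 in all 6 libraries. In bulk blood, more cells of a type and more RNA per cell cannot be told apart, and the part of neutrophil number in the 17 calls was not tested.

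**Figure D5:**
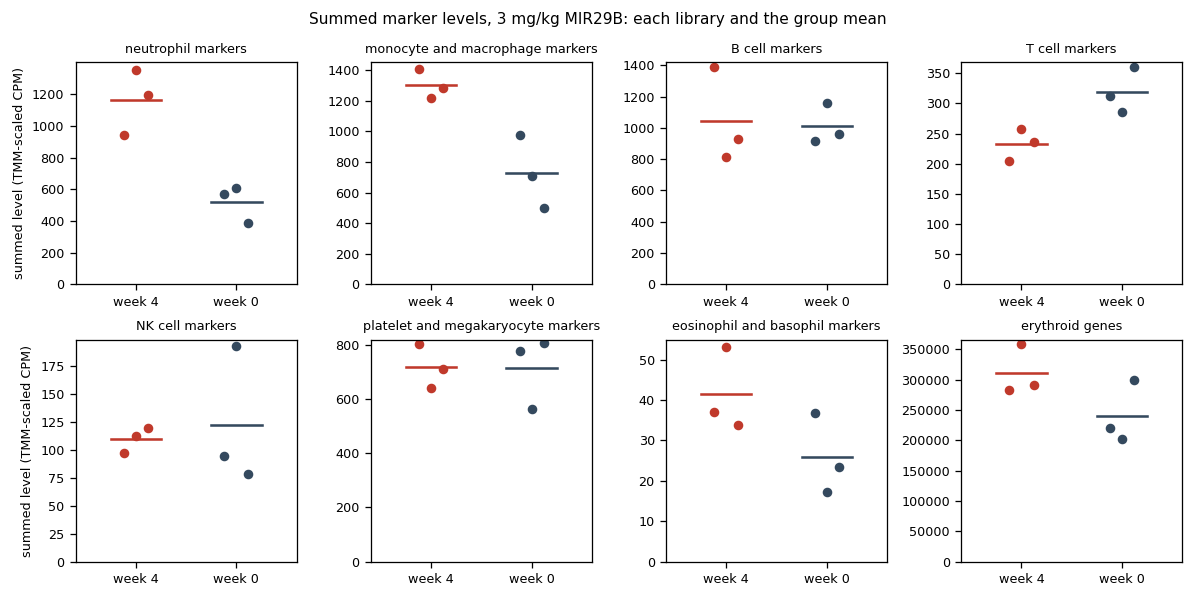
Summed level of the markers of each blood cell type, as TMM-scaled CPM, in the 3 libraries of week 4 (left) and of week 0 (right) of the 3 mg/kg MIR29B arm, with the group mean as a line. The neutrophil sums are 939 to 1351 CPM at week 4 and 386 to 606 CPM at week 0, and the T cell sums are 205 to 258 CPM at week 4 and 285 to 360 CPM at week 0.

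Monocyte and macrophage markers had 1 of 35 tested members called, Cd14, beside 0.142% of all genes, and a median log2 fold change of 0.47. Their summed level was 1405, 1215 and 1281 CPM at week 4 and 978, 706 and 497 CPM at week 0, and without Cd14 it was 1319, 1106 and 1142 CPM at week 4 and 963, 689 and 490.0 CPM at week 0. The defining marker Csf1r, the receptor for the monocyte growth factor, overlapped between the weeks, with 56.9, 24.4 and 30.7 CPM at week 4 and 40.8, 17.4 and 14.4 CPM at week 0. Lyz2, lysozyme of monocytes and neutrophils, had 366, 399 and 377 CPM at week 4 and 302, 224 and 182 CPM at week 0 (adjusted p = 0.981, edgeR). Eosinophil and basophil markers, 17 tested, had a median of 1.09 and summed levels of 33.9 to 53.2 CPM at week 4 and 17.3 to 36.9 CPM at week 0, with no call.

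Lymphocyte markers had no call. Of 30 B cell markers 21 had a negative fold change, with a median of -0.44. Of these markers 3 were lower and none higher at an unadjusted p under 0.05, beside 2.68% and 3.45% of all genes. Cxcr5, the receptor that brings B cells into follicles, had 3.73, 2.12 and 2.75 CPM at week 4 and 10.5, 7.0 and 13.3 CPM at week 0 (log2 fold change -1.83 ± 0.53, adjusted p = 0.243, edgeR). The summed B cell level overlapped, at 813 to 1389 CPM at week 4 and 919 to 1162 CPM at week 0. Of 29 T cell markers 26 had a negative fold change, the median was -0.47, and the summed level was 205, 258 and 236 CPM at week 4 and 312, 285 and 360 CPM at week 0, with no overlap. At an unadjusted p under 0.05, 4 T cell markers were lower and 1 was higher, beside 2.68% and 3.45% of all genes. Gata3, a factor of T helper cells, had 0.0705, 0 and 0.258 CPM at week 4 and 2.11, 1.15 and 1.34 CPM at week 0 (adjusted p = 0.329, edgeR). Its week 4 libraries held only 8 counts together. Ctla4 went the other way, with a log2 fold change of 1.5 ± 0.52 (adjusted p = 0.483, edgeR). NK cell markers had a median of -0.37 and platelet markers one of -0.1, and their summed levels overlapped between the weeks.

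Interferon-stimulated genes had no call among 61 tested, with a median log2 fold change of -0.17. None was higher and 6 were lower at an unadjusted p under 0.05, beside 3.45% and 2.68% of all genes. Ifi47, a GTPase induced by interferon gamma, had 5.64, 10.3 and 6.7 CPM at week 4 and 17.3, 19.8 and 21.9 CPM at week 0, with no overlap (log2 fold change -1.38 ± 0.36, adjusted p = 0.141, edgeR). In the scrambled arm its log2 fold change was -1.49 ± 0.36 and at 2 mg/kg MIR29B it was -1.41 ± 0.36, where it was called (adjusted p = 0.0309, edgeR). The other lower genes by smallest p were Txk, Vamp1 and R3hcc1l, which are not on this list. Txk, a kinase of T and NK cells, had 0.423, 1.33 and 1.2 CPM at week 4 and 4.76, 4.6 and 3.91 CPM at week 0. Vamp1, a vesicle fusion protein, had a log2 fold change of -2.17 ± 0.61, and R3hcc1l one of -1.72 ± 0.49. None of them passed the adjustment, with adjusted p of 0.217 to 0.236 (edgeR). In the scrambled arm the log2 fold changes of Txk, Vamp1 and R3hcc1l were -1.13, -1.71 and -0.3. At 2 mg/kg MIR29B they were 0.41, -0.45 and 0.45.

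Dnmt3a, the methyltransferase named in the series title, did not pass the test. The transcript, which carries the 8-base matches shown above, had 2.18, 1.06 and 3.52 CPM at week 4, against 2.31, 1.63 and 3.44 CPM at week 0. The weeks overlapped almost fully, with a log2 fold change of -0.11 ± 0.73 (adjusted p = 1.0, edgeR). The standard error leaves room for a fall or a rise of some size, and the sign turned when single libraries were left out. Its difference from the change with scrambled control was 0.06 ± 1.05 on the log2 scale (unadjusted p = 0.951, edgeR). Dnmt3b, the other de novo methyltransferase, had 0.705, 0.265 and 0.515 CPM at week 4 and 0.68, 0.383 and 0.668 CPM at week 0 (log2 fold change -0.21 ± 1.31). Dnmt1, which copies methylation at replication, had 27.6, 18.4 and 34.9 CPM at week 4 and 22.4, 15.1 and 32.1 CPM at week 0 (log2 fold change 0.22 ± 0.48). Tet2 and Tet3, which oxidise methylcytosine, had log2 fold changes of -0.34 ± 0.84 and 0.04 ± 0.38. Among the 22 tested members of the DNA methylation list there was no call, and the median was 0.11. At an unadjusted p under 0.05 Gadd45b, a stress-induced protein, was higher (log2 fold change 2.44 ± 0.73). At the same threshold Mbd4, a glycosylase for mismatched thymine, was lower (-1.68 ± 0.78). Of all genes 3.45% were higher and 2.68% lower at that threshold.

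Of 40 tested literature targets of miR-29, 1 was called, Ptp4a1, and it was higher, beside 0.142% of all genes. At an unadjusted p under 0.05, 4 were higher and 1, Dicer1, was lower, beside 3.45% and 2.68% of all genes. The median log2 fold change was 0.03. Mcl1, an anti-apoptotic member of the BCL2 family with the match shown above, had 143, 168 and 170.0 CPM at week 4 and 157, 110.0 and 110.0 CPM at week 0 (log2 fold change 0.35 ± 0.36, adjusted p = 1.0, edgeR). Col4a5, Fbn1 and Pxdn, matrix genes of this list, were at 0 in all 6 libraries. The 8-base match was present in 597 of 20968 genes with an annotated 3' UTR (2.85%), of which 345 were tested, with a median log2 fold change of -0.11. The seed match was present in 2734 genes (13.04%), of which 1729 were tested, with a median of -0.08, against -0.04 over the 11177 tested genes with a 3' UTR. Of the 1729 tested genes with the seed match 3 were called, Ets2, Ptp4a1 and Trem1, beside 17 of the 11177 with a 3' UTR. All 17 were higher, so the direction of these 3 is not particular to the match. Of genes with the seed match 3.07% were lower at an unadjusted p under 0.05, against 2.71% of all with a 3' UTR.

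Regulators of fetal globin and genes of red cells had no call. Bcl11a, the main repressor of gamma-globin, had 3.73, 2.12 and 4.55 CPM at week 4 and 5.03, 2.88 and 5.35 CPM at week 0 (log2 fold change -0.34 ± 0.57, adjusted p = 1.0, edgeR). Zbtb7a, the other main repressor, had 19.2, 7.29 and 11.5 CPM at week 4 and 17.2, 5.85 and 10.1 CPM at week 0 (log2 fold change 0.2 ± 0.49). Myb, a factor of progenitors, was near 0 with 0.352, 0.663 and 0.429 CPM at week 4 and 0.68, 0.863 and 0.573 CPM at week 0. Klf1, the activator of adult beta-globin, had 10.9, 8.62 and 7.64 CPM at week 4 and 5.17, 6.81 and 4.87 CPM at week 0, without overlap, and did not pass (log2 fold change 0.69 ± 0.6, adjusted p = 1.0, edgeR). Gata1, the master factor of red cells, had 37.8, 27.2 and 37.4 CPM at week 4 and 14.3, 26.9 and 16 CPM at week 0 (log2 fold change 0.84 ± 0.42, unadjusted p = 0.0535, edgeR). The 44 tested regulators had a median of -0.05.

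Of 60 tested erythroid genes 48 had a positive fold change, with a median of 0.41. Of the 60, 6 were higher and none lower at an unadjusted p under 0.05, beside 3.45% and 2.68% of all genes. Slc2a1, a glucose transporter on this list, had 18.7, 13.8 and 17.2 CPM at week 4 and 4.08, 6.04 and 5.35 CPM at week 0 (log2 fold change 1.68 ± 0.39, adjusted p = 0.0575, edgeR). In the scrambled arm its log2 fold change was 1.81 ± 0.39. Alas2 averaged 118000 ± 18400 CPM at week 4 and 80400 ± 20700 CPM at week 0 (SD, n = 3 each), a log2 fold change of 0.55 ± 0.33 (adjusted p = 0.915, edgeR). The summed erythroid level was 282200, 358000 and 291100 CPM at week 4 and 219400, 202000 and 299600 CPM at week 0, with overlap. The median of the erythroid list was 0.36 in the scrambled arm and -0.4 at 2 mg/kg MIR29B. Genes of reticulocyte autophagy and ubiquitin turnover, which clear organelles from maturing red cells, had a median of 0.48 over 32 tested and no call. Their median was 0.25 in the scrambled arm and -0.19 at 2 mg/kg MIR29B. Ulk1, the kinase that starts autophagy, had 25.4, 9.02 and 27.9 CPM at week 4 and 9.79, 11.7 and 9.74 CPM at week 0, where week 4 replicate 2 fell among the week 0 libraries.

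The remaining lists had no call. Heat shock and unfolded protein genes had a median of 0.34 over 44 tested. The inducible chaperone Hspa1a had 345, 50.7 and 407 CPM at week 4 and 49.0, 133 and 77.6 CPM at week 0, and Hspa1b, a near-identical copy that can share its reads, had 459, 49.9 and 547 CPM at week 4 and 59.1, 156 and 112 CPM at week 0. In both, week 4 replicates 1 and 3 were high and replicate 2 was not. Hypoxia and glycolysis genes had a median of 0.27, oxidative stress and NRF2 genes 0.25 and ribosomal protein genes 0.23. Cell cycle genes had -0.03, respiratory chain subunits -0.06, proteasome subunits -0.04, cholesterol synthesis and uptake genes 0.06, nucleic acid sensing genes -0.17 and miRNA processing and silencing genes -0.26. Plasma cell markers had a median of 0 over 13 tested and progenitor markers 0.44 over 12. Ribosomal protein genes had a median of 0.81 in the scrambled arm and of -1.1 at 2 mg/kg MIR29B.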

How the data were processed

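RNA-seq of 36 blood libraries was used. The authors deposited raw counts, not normalised, for 25856 RefSeq transcripts. Per the submitters' processing notes the tools were HISAT2 2.0.5 and featureCounts 1.5.0-p3, and the build GRCm38, with no roles given; annotation release, strand setting and mate handling are not given in the sources used here. Every deposited count was even (0 odd). Symbols came from a RefSeq table (25650 transcripts) or GENCODE (132); 74 had none. The transcript with the highest total stood for its gene (16812 genes). Counting intervals cover counting error only, since reads without molecular identifiers are not independent molecules.

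Genes were filtered with filterByExpr (minimum count 10, minimum total 15), scaled by TMM and fitted with edgeR 4.0.16 in R 4.3.3, 12 groups, no block, quasi-likelihood F test, two-sided; genes with a Benjamini-Hochberg adjusted value under 0.05 were called. SE is the absolute log2 fold change over the square root of F. A common dispersion of 0.25 was estimated. DESeq2 1.42.0, limma 3.58.1 (voom), RLE scaling, other filters, halved counts, omitted libraries and a block were alternatives. The fit was tested on simulated data. The comparison and lists were chosen with earlier results of these data known.

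Named genes were, of called genes with at least 10 counts in every library of the higher group, the 10 highest and 10 lowest fold changes and up to 4 per list; the 5 smallest p where fewer than 5 were called in a direction and for each difference; and a fixed panel (Mcl1, Zbtb7a, Gata1, Klf1, Myb, Bcl11a, Dnmt1, Dnmt3a, Dnmt3b, Tet2, Tet3, sex-linked genes). Others named were chosen after their values were seen. Gene coordinates are those of the RefSeq table, and 3' UTR coordinates are those of GENCODE M21 on GRCm38.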

Additional observations from a re-analysis of the deposited data

How the results depend on the processing

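The 17 calls of week 4 over week 0 at 3 mg/kg MIR29B were 17 with RLE scaling, 69 with DESeq2, 29 with limma voom, 83 without a filter on low counts (80 higher and 3 lower), 28 with only the groups compared, 31 without ribosomal RNA and entries with no symbol, and 28 with counts halved; with 1 library left out they were 2 to 20. The difference from scrambled control stayed at 0 except for 4 without a filter, and the difference from 2 mg/kg at 0 except for 1 without a filter. For 3 mg/kg scrambled, the 5 calls became 42 with DESeq2, 11 with RLE scaling, 12 with counts halved, 60 without a filter, 32 with only the groups compared, 11 with the replicate block, 11 without ribosomal RNA and entries with no symbol, and 0 to 2 with 1 library left out. For 2 mg/kg MIR29B, the 249 became 873 with DESeq2, 154 with voom, 921 without a filter, 383 with only the groups compared, and 43 to 615 with 1 library left out. The cause of these shifts was not tested.

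Same-numbered libraries of the 2 weeks correlated at 0.311, 0.165 and 0.059 in their deviations from the group means, not all over 0.1, so the numbers were not taken as pairs; week 4 replicate 3 correlated best with week 0 replicate 2. With the replicate block 20 genes were called, 15 of them among the 17.

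Among the named genes followed through these alternatives, signs turned only for 6 that did not pass. With 1 library left out, the log2 fold change ran from -0.58 to 0.22 for Dnmt3a, from -0.55 to 0.08 for Dnmt3b, from -0.02 to 0.52 for Dnmt1, from -0.85 to 0.03 for Tet2, from -0.31 to 0.25 for Tet3 and from -0.24 to 0.66 for Zbtb7a. Tet3 was -0.0024 with voom and -0.05 with the replicate block. Counts were few for Snai1, with 2 at week 0, and for Dnmt3b, with 36 at week 4 and 42 at week 0. Dnmt3a had 160 counts at week 4 and 174 at week 0, and the part of depth in its spread was not tested.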
